A study of Homo sapiens with 6 samples.

Results

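The 10 receptors through which myeloid cells sense growth factors and dying cells were followed after OSGEP knockdown in HL-60, an established line of human promyelocytic leukaemia cells. They are 3 receptor tyrosine kinases of myeloid progenitors and macrophages (FLT3, KIT and CSF1R), 4 chains of cytokine receptors (CSF3R, CSF2RB, CSF2RA and IL3RA) and the 3 TAM kinases (TYRO3, AXL and MERTK). They were chosen by gene symbol as growth factor receptors of myeloid cells, with earlier results of these data known. They are 10 of the 58302 genes in the count tables. RNA sequencing covered 3 libraries of HL-60 cells with an OSGEP shRNA, genotype OSGEP knockdown, and 3 of HL-60 cells with a control shRNA, labelled WT. All were grown with 20% fetal bovine serum and without a stated drug. OSGEP encodes the catalytic subunit of the KEOPS complex, which places the t6A modification on tRNAs that read codons beginning with A. The study asked what OSGEP does in this leukaemia. The labels do not say how many hairpins or clones were used, how long the knockdown lasted or whether libraries were made from different cultures. The p-values therefore reflect the variation among these libraries, part or all of which may be technical.

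The receptors differ in how they signal. FLT3, KIT and CSF1R are class III receptor tyrosine kinases, which dimerise on binding FLT3 ligand, stem cell factor, or CSF-1 and IL-34, and phosphorylate each other. CSF3R, CSF2RB, CSF2RA and IL3RA have no kinase of their own and signal through JAK kinases and STAT5 or STAT3: CSF3R pairs with itself, while CSF2RB is the common beta chain that joins the GM-CSF alpha chain CSF2RA and the IL-3 alpha chain IL3RA. TYRO3, AXL and MERTK bind GAS6 on dying cells, and TYRO3 and MERTK also bind protein S there. Macrophages use MERTK to engulf such cells.

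Depth was alike in both groups. Total counts ran from 8326982 to 10157091 in the knockdown libraries and from 8414775 to 10025573 in the control libraries. OSGEP had 21.2, 23.1 and 20.9 CPM, the count of a gene scaled to its library total (TMM-adjusted), in OSGEP shRNA libraries 1, 2 and 3 and 49.1, 54.4 and 76.9 CPM in control shRNA libraries 1, 2 and 3. All 8 genes listed for HL-60 identity were detected, with a summed level of 1422 to 1649 CPM in knockdown cells and 3284 to 3552 CPM in control cells. Of these, 5 were lower in the knockdown, among them the granule protein genes MPO (log2 fold change -1.74, SE 0.09), PRTN3 (-1.47, SE 0.11), AZU1 (-2.57, SE 0.19) and ELANE (-1.36, SE 0.13). The listed genes CTSG (-0.715, SE 0.25), CD33 (-0.03, SE 0.157) and LYZ (0.488, SE 0.153) did not pass the threshold given next. Over 14018 genes tested with edgeR's quasi-likelihood test, 1507 (10.8%) passed a Benjamini-Hochberg adjusted p of 0.05, 727 (5.19%) higher and 780 (5.56%) lower in the knockdown. With no scaling beyond library size 859 were higher and 612 lower, and without control library 3, control library 2 or knockdown library 3 the count was 870, 890 or 941.

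Of the 9 receptors tested, 5 passed the same threshold, a share of 55.6% against the 10.8% of all genes tested, with 2 higher and 3 lower in the knockdown. Because the receptors were chosen with earlier results of these data known, this contrast is a description and not a test. MERTK and CSF2RB rose, AXL, FLT3 and CSF3R fell, and CSF1R, CSF2RA, IL3RA and TYRO3 did not pass. KIT, with a total of 1 read, was below the filter on low counts. Of the 9 tested, only the 5 that passed had 3 knockdown values that did not overlap the 3 control values. Over all genes tested, passing or not, the share without overlap was 28.9%. Passing already favours such separation, so the lack of overlap is not further support. The median log2 fold change of the 9 was 0.05, beside 0.005 for all genes tested. These are bulk samples, so fewer cells that express a receptor and less of its RNA per cell cannot be told apart.

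**Figure D1:**
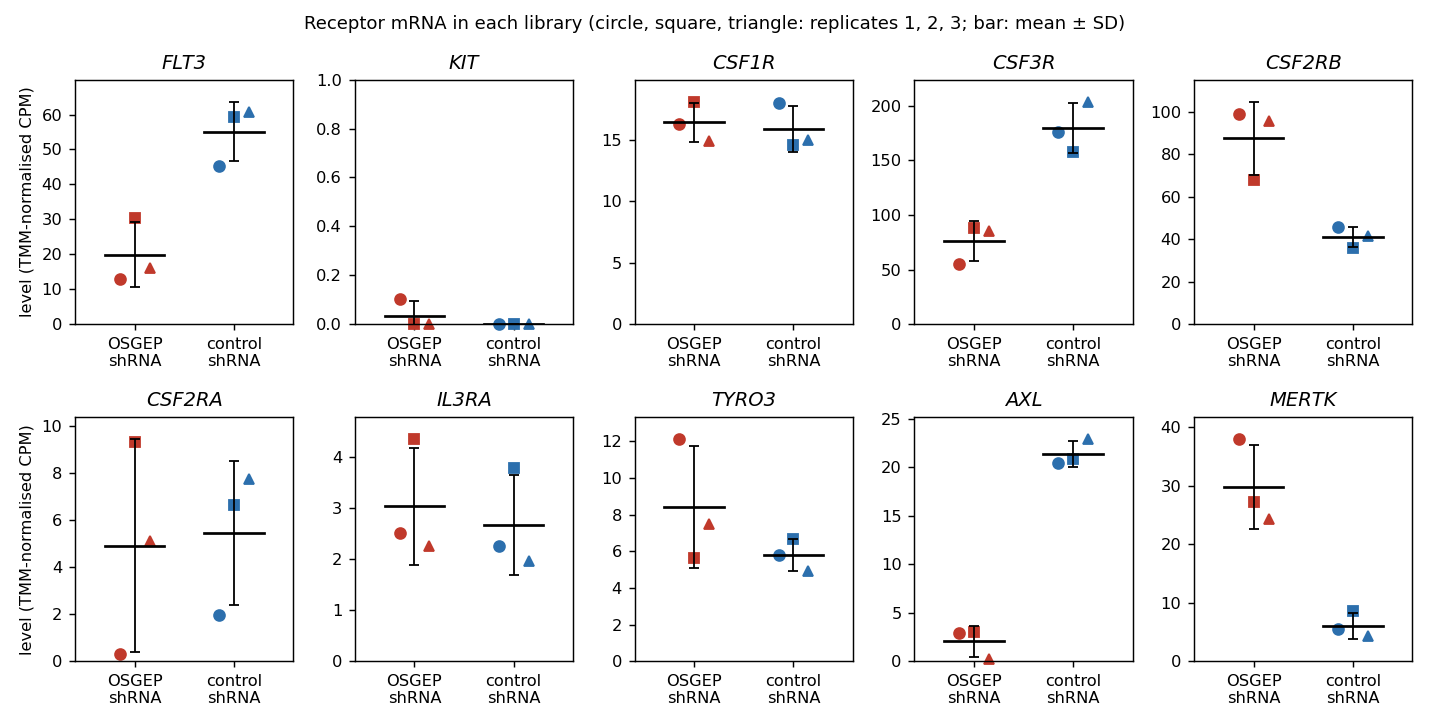
Level of each receptor mRNA (TMM-normalised CPM, linear axes from 0) in the 3 knockdown libraries (red, left) and the 3 control libraries (blue, right); black bars give the mean ± SD. The knockdown and control points do not overlap for FLT3, CSF3R, CSF2RB, AXL and MERTK, and KIT stays at or near 0 in every library.

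The TAM kinases AXL and MERTK moved in opposite directions, and their promoters are shown here because these 2 genes, of the same family, gave the steepest fall and the steepest rise of the 9 tested. The sequences are from RefSeq, build GRCh38.p14, and run from 250 bases before to 50 bases after an annotated start, 5′ to 3′ on the gene's strand. AXL lies on the plus strand, with this window at chr19:41218973-41219272, and MERTK on the plus strand at chr2:111898357-111898656. Capitals mark every match, on either strand, to the PU.1 core GAGGAA, a C/EBP pattern TTNNGNAA, the AP-1 pattern TGANTCA and the GC box GGGCGG, and no matches overlap in these windows.
AXL: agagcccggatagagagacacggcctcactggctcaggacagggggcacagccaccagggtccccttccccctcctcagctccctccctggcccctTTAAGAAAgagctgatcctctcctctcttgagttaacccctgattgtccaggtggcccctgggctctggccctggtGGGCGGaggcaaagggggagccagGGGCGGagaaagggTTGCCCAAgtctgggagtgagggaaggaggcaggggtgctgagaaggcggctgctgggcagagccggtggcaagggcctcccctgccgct
MERTK: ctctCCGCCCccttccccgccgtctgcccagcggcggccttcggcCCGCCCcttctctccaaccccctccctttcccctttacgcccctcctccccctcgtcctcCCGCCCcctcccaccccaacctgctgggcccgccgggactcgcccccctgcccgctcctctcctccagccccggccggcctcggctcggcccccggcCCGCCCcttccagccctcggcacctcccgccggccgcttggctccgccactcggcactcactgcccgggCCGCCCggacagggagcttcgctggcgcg
The AXL window holds 2 GC boxes and 2 matches to the C/EBP pattern. The MERTK window holds 5 GC boxes and none of the other 3 motifs. Among 35116 promoter windows of the same length, 45.0% hold a GC box, 36.8% the C/EBP pattern, 27.9% the PU.1 core and 7.71% the AP-1 pattern, so these matches are a description of the letters only.

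AXL, a receptor kinase linked to survival and drug resistance in several tumours, fell in every knockdown library, furthest in library 3. It had 28, 33 and 2 reads in OSGEP shRNA libraries 1, 2 and 3, against 198, 204 and 186 reads in control shRNA libraries 1, 2 and 3. In normalised terms these were 2.92, 3.05 and 0.237 CPM in knockdown cells and 20.4, 20.9 and 22.9 CPM in control cells. The control libraries lay close together, and knockdown library 3 stood below the other 2 by a factor of over 10 in reads. AXL (ENSG00000167601) spans 41219203 to 41261766 of chromosome 19 on GRCh38. The fitted log2 fold change was -3.34 (SE 0.55, 95% interval -4.50 to -2.17, edgeR adjusted p = 0.00066), and -2.82 to -3.69 with each library left out in turn. An antisense gene, AC011510.1, shares 67 exon bases with AXL and had no read in any library.

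MERTK, the TAM kinase most tied to engulfment by macrophages, rose. It had 364, 294 and 205 reads in OSGEP shRNA libraries 1, 2 and 3, against 53, 84 and 35 reads in control shRNA libraries 1, 2 and 3, or 38.0, 27.2 and 24.3 CPM in knockdown cells and 5.46, 8.59 and 4.31 CPM in control cells. The lowest knockdown library stood above the highest control library. MERTK (ENSG00000153208) spans 111898479 to 112029561 of chromosome 2 on the plus strand. Its fitted fold change was 4.85 (log2 2.28, SE 0.33, 95% interval 1.58 to 2.98, edgeR adjusted p = 0.000221).

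TYRO3, the remaining TAM kinase, did not pass. It had 12.1, 5.64 and 7.47 CPM in OSGEP shRNA libraries 1, 2 and 3 and 5.77, 6.65 and 4.92 CPM in control shRNA libraries 1, 2 and 3, and the groups overlapped. The log2 fold change was 0.54 with a 95% interval of -0.44 to 1.52 (edgeR adjusted p = 0.563), which allows a change of either sign. TYRO3 (ENSG00000092445) lies at 41557675 to 41583586 of chromosome 15. Its pseudogene TYRO3P, which could take reads from it, had 5 reads over all libraries.

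Set against each other per exon length, the TAM kinases changed in make-up within each library. AXL made up 5.81%, 8.59% and 0.780% of the summed TAM level in OSGEP shRNA libraries 1, 2 and 3, against 70.1%, 62.4% and 76.5% in control shRNA libraries 1, 2 and 3. MERTK made up 82.9%, 83.9% and 87.7% in the knockdown and 20.6%, 28.2% and 15.8% in the control. Every knockdown library was mostly MERTK and every control library mostly AXL. The mean difference in the AXL share was -64.6 percentage points (5.06 ± 3.96% in the knockdown and 69.7 ± 7.03% in the control, SD, n = 3 each). A two-sided exact permutation test gave p = 0.1, the smallest that 3 against 3 libraries allow. AXL and MERTK were already apart in opposite directions without overlap, so this value is not further support for their calls. The TYRO3 share was 10.1 ± 2.30% in the knockdown and 8.82 ± 0.928% in the control (exact permutation p = 0.4, n = 3 each). The summed TAM level was 7.52 ± 2.00 CPM per kb in knockdown cells and 5.98 ± 0.444 CPM per kb in control cells (exact permutation p = 0.2, n = 3 each).

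**Figure D2:**
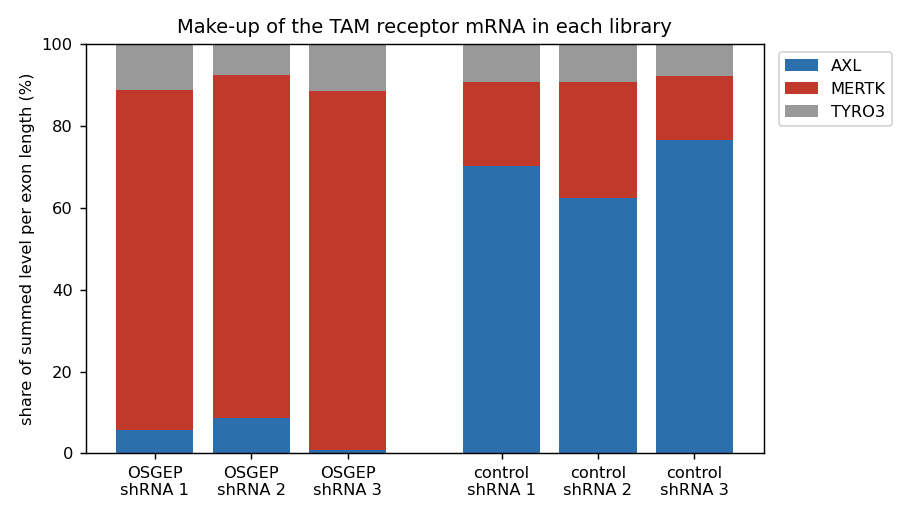
Share of AXL (blue), MERTK (red) and TYRO3 (grey) in the summed level per exon length of the 3 TAM kinases (%), 1 stacked bar a library, knockdown libraries on the left and control libraries on the right. MERTK takes 82.9% to 87.7% of each knockdown bar and 15.8% to 28.2% of each control bar.

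FLT3 and CSF3R, receptors of early myeloid and of granulocytic cells, fell. Their promoter windows are shown because both genes fell and because their letters differ. Both lie on the minus strand, FLT3 at chr13:28100527-28100826 and CSF3R at chr1:36483265-36483564 on GRCh38.p14, with capitals as above.
FLT3: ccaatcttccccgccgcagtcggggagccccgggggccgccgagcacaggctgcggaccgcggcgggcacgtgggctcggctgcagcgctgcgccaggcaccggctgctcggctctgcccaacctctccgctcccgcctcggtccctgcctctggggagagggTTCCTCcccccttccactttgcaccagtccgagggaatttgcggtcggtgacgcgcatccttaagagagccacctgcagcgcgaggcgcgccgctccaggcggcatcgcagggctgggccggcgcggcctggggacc
CSF3R: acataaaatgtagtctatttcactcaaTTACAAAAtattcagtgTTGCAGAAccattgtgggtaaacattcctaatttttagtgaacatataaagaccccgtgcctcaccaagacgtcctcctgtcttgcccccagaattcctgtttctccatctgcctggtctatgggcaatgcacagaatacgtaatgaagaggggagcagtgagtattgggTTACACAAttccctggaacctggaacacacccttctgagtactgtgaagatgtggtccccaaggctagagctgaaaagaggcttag
The FLT3 window is 74.0% G and C and holds 1 match to the PU.1 core. The CSF3R window is 44.3% G and C and holds 3 matches to the C/EBP pattern.

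FLT3, the receptor for FLT3 ligand and a gene often mutated in acute myeloid leukaemia, had 13.0, 30.5 and 16.1 CPM in OSGEP shRNA libraries 1, 2 and 3, against 45.3, 59.3 and 60.7 CPM in control shRNA libraries 1, 2 and 3. Knockdown library 2 was the highest of its group, at 330 reads beside 125 and 136, and still lay below each control library. The log2 fold change was -1.46 (SE 0.28, 95% interval -2.06 to -0.87, edgeR adjusted p = 0.00233). With each library left out in turn it lay between -1.91 and -1.23, with adjusted p-values of at most 0.0239. FLT3 (ENSG00000122025) spans 28003274 to 28100592 of chromosome 13.

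CSF3R, the receptor for the granulocyte growth factor G-CSF, had the highest level per exon length of the 10 in the control. It had 55.2, 87.8 and 85.04 CPM in OSGEP shRNA libraries 1, 2 and 3 and 176, 158 and 204 CPM in control shRNA libraries 1, 2 and 3. No knockdown library reached 100 CPM and no control library fell below 150 CPM. Its log2 fold change was -1.24 (SE 0.17, 95% interval -1.60 to -0.87, edgeR adjusted p = 0.000153). CSF3R (ENSG00000119535) spans 36466043 to 36483278 of chromosome 1.

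CSF2RB, the beta chain shared by the receptors for GM-CSF, IL-3 and IL-5, rose. It had 99.1, 67.7 and 95.6 CPM in OSGEP shRNA libraries 1, 2 and 3, against 45.6, 36.0 and 41.5 CPM in control shRNA libraries 1, 2 and 3. The lowest knockdown library, library 2, was above the highest control library. The fitted fold change was 2.13 (log2 1.09, SE 0.18, 95% interval 0.70 to 1.48, edgeR adjusted p = 0.000793). CSF2RB (ENSG00000100368) lies at 36913628 to 36940449 of chromosome 22, and its pseudogene CSF2RBP1 had no read.

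The alpha chains that pair with CSF2RB did not pass, and both were low. CSF2RA, the GM-CSF alpha chain, had 3, 101 and 43 reads in OSGEP shRNA libraries 1, 2 and 3 and 19, 65 and 63 reads in control shRNA libraries 1, 2 and 3. Library 1 was the lowest in each group. Its log2 fold change of -0.14 had a 95% interval of -1.87 to 1.59 (edgeR adjusted p = 0.948), and it became 0.41 without knockdown library 1 and -1.02 without knockdown library 2. IL3RA, which encodes CD123, had 24, 47 and 19 reads in OSGEP shRNA libraries 1, 2 and 3 and 22, 37 and 16 reads in control shRNA libraries 1, 2 and 3 (log2 fold change 0.18, 95% interval -1.5 to 1.87, edgeR adjusted p = 0.931). The intervals are wide, so changes of either sign within them remain possible.

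CSF2RA (ENSG00000198223) and IL3RA (ENSG00000185291) lie in the pseudoautosomal region of the X chromosome, which has an identical copy on the Y chromosome, at 1268800 to 1310381 and 1336616 to 1382689. How reads that match both copies were counted is not given in the sources used here. Of 13 other genes listed for the region, 11 had reads and 10 were tested, of which 2 fell (20%, beside 10.8% of all genes tested). These were PLCXD1, by 0.85 (SE 0.23), and P2RY8, by 0.67 (SE 0.21), on the log2 scale. The PLCXD1 call was lost without library 2 or 3 of either group (-0.93 to -0.63), and the P2RY8 call without any library other than knockdown library 1 (-0.80 to -0.54). The P2RY8 call was also lost with RLE size factors (-0.65), library size alone (-0.60), DESeq2 (-0.65) and limma-voom (-0.63). The most read of them, the ADP/ATP carrier gene SLC25A6, stood at 871 CPM in knockdown cells and 802 CPM in control cells.

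Per exon length, CSF2RB stood at 12.8, 2.72 and 7.22 times the summed level of CSF2RA and IL3RA in OSGEP shRNA libraries 1, 2 and 3, against 4.96, 1.82 and 2.61 times in control shRNA libraries 1, 2 and 3. The ranges overlapped, with means of 7.59 ± 5.06 in the knockdown and 3.13 ± 1.63 in the control (SD, two-sided exact permutation p = 0.2, n = 3 each). The mean difference of 4.45 became 1.84 without knockdown library 1 and 6.89 without knockdown library 2.

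CSF1R, the receptor for CSF-1 and IL-34 and a marker of macrophages, had no detected difference between the 2 groups. It had 16.28, 18.12 and 14.94 CPM in OSGEP shRNA libraries 1, 2 and 3 and 18.03, 14.63 and 15.01 CPM in control shRNA libraries 1, 2 and 3, with wide overlap. Its log2 fold change of 0.05 had a 95% interval of -0.55 to 0.65 (edgeR adjusted p = 0.948), and changes within that interval remain possible. CSF1R (ENSG00000182578) spans 150053291 to 150113372 of chromosome 5, and an intron holds the ribosomal protein pseudogene RPL7P1 on the other strand, with no shared exon base. KIT (ENSG00000157404), the stem cell factor receptor, on chromosome 4 at 54657918 to 54740715, had 1 read in knockdown library 1 and none in the other 5 libraries.

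**Figure D3:**
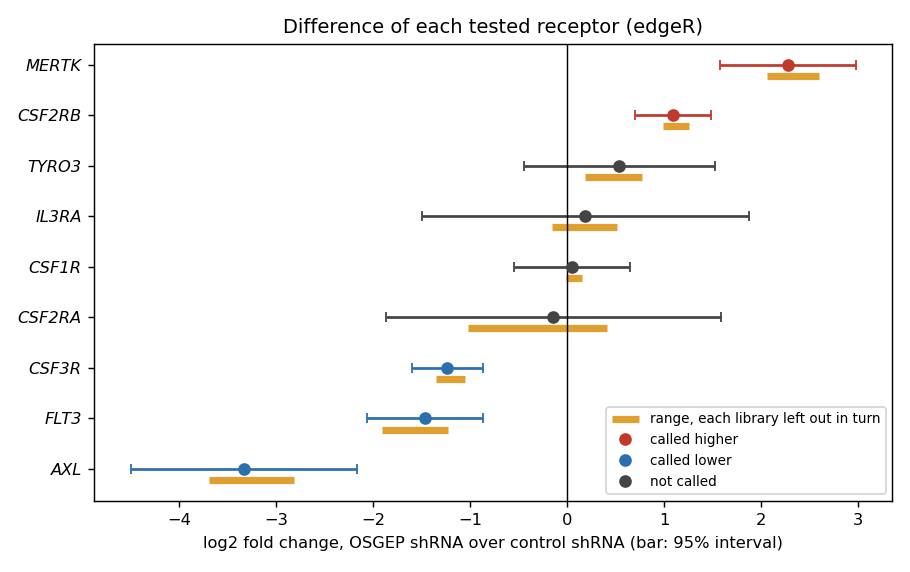
Log2 fold change of the 9 tested receptors, OSGEP shRNA over control shRNA (points, with 95% intervals), and the range of the estimate with each library left out in turn (orange bars). Intervals of MERTK and CSF2RB lie above 0, those of AXL, FLT3 and CSF3R below 0, and the other 4 include 0.

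The order of the receptors by level changed between the groups. In the knockdown libraries CSF2RB led, at 17.5 ± 3.45 CPM per kb of exon, above CSF3R at 9.02 ± 2.15, MERTK at 6.35 ± 1.53, FLT3 at 4.78 ± 2.24 and CSF1R at 3.19 ± 0.310 CPM per kb (SD, n = 3). Of these neighbours, the libraries of CSF2RB and CSF3R did not overlap, while CSF3R and MERTK, MERTK and FLT3, and FLT3 and CSF1R did. Below them came IL3RA at 1.77, CSF2RA at 1.28, TYRO3 at 0.768 and AXL at 0.402 CPM per kb, each overlapping the next, with no overlap between CSF1R and IL3RA. KIT stood last, at 0.00625 CPM per kb from its single read.

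In the control libraries CSF3R led, at 21.3 ± 2.71 CPM per kb, above FLT3 at 13.3 ± 2.04, CSF2RB at 8.20 ± 0.958, AXL at 4.15 ± 0.257 and CSF1R at 3.09 ± 0.362 CPM per kb, and none of these neighbours overlapped (SD, n = 3). IL3RA at 1.56, CSF2RA at 1.42 and MERTK at 1.30 CPM per kb overlapped each other, and TYRO3 stood lower, at 0.528 CPM per kb. AXL thus ranked 9 in the knockdown and 4 in the control, and MERTK ranked 3 in the knockdown and 8 in the control. These levels use the length of all annotated exons, which is longer than any single transcript of a gene, for TYRO3 10945 against 8207 bases. The summed level of the 10 receptors was 45.1 ± 1.42 CPM per kb in knockdown cells and 54.8 ± 3.68 CPM per kb in control cells (two-sided exact permutation p = 0.1, the smallest possible, n = 3 each). This sum nets the falls of CSF3R, FLT3 and AXL against the rises of CSF2RB and MERTK. Because the receptors were chosen with earlier results of these data known, it is a description and not support for a shared fall.

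**Figure D4:**
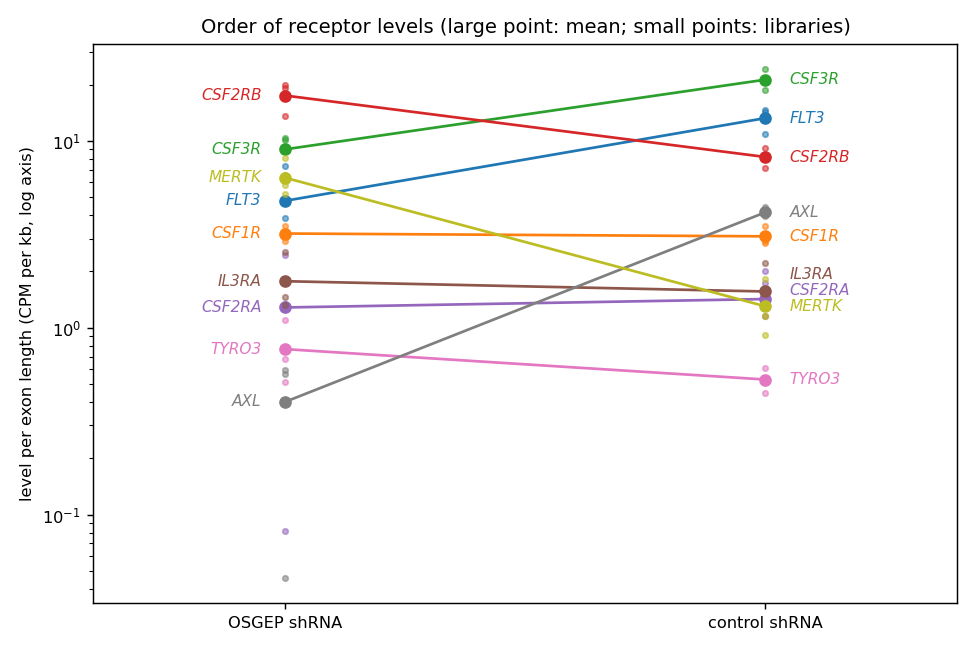
Level of 9 receptors per kilobase of exon (CPM per kb, log axis) in knockdown (left) and control libraries (right); large points are means, small points single libraries, and lines join the means of a gene. KIT, at or near 0, is not drawn; the lines of MERTK and AXL cross, as do those of CSF2RB with CSF3R and FLT3.

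Codon content, which the choice of the receptors did not use, is set beside their direction here. The share of codons that begin with A, those read by t6A-modified tRNAs, was 28.6% in MERTK and 20.8% in CSF2RB, which rose, and 21.0% in AXL, 24.3% in CSF3R and 29.2% in FLT3, which fell. In the other 5 it was 31.4% in KIT, 25.6% in CSF1R, 29.7% in CSF2RA, 29.4% in IL3RA and 21.8% in TYRO3. Over 19507 protein-coding genes the median was 27.1%, with quartiles of 22.9% and 30.3%. The counts measure mRNA, not translation, and a link of codon content to direction was not tested.

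Of 12 ligands listed for the receptors, 5 had reads. Of these 5, 1 rose (20%, beside 10.8% of all genes tested) and none fell. LGALS3, which encodes galectin-3, also described as a ligand of MERTK, had 435, 341 and 401 CPM in OSGEP shRNA libraries 1, 2 and 3 and 154, 141 and 149 CPM in control shRNA libraries 1, 2 and 3 (log2 fold change 1.41, SE 0.12, edgeR adjusted p = 7.93e-07). CSF1, the ligand of CSF1R, had 11.3, 9.06 and 4.98 CPM in knockdown cells and 3.40, 1.53 and 1.97 CPM in control cells. Its groups did not overlap, yet its log2 fold change of 1.87 (SE 0.58) had an edgeR adjusted p of 0.0504, which was 0.0236 with DESeq2 and ran from 0.0228 to 0.168 over all alternatives.

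GAS6, the ligand with the highest affinity for AXL, had 14, 49 and 1 reads in OSGEP shRNA libraries 1, 2 and 3 and 69, 112 and 44 reads in control shRNA libraries 1, 2 and 3. In CPM its groups did not overlap, which held for 28.9% of all genes tested. Its log2 fold change of -1.95 (SE 0.80) did not pass (edgeR adjusted p = 0.15), and was -3.27 without knockdown library 2 (edgeR adjusted p = 0.0251, with a range of 0.0251 to 0.459 over all alternatives). PROS1, which encodes protein S, and KITLG, which encodes stem cell factor, had log2 fold changes of 0.75 and 0.27 (edgeR adjusted p = 0.504 and 0.839). FLT3LG, IL34, CSF2, CSF3, IL3, IL5 and TULP1 had no read in any library.

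Kinases and adaptors that act beneath the receptors mostly did not pass. Of 37 tested, 4 rose and 0 fell, 10.8% of those tested and the same share as among all genes, with a median log2 fold change of 0.05. GRB10, an adaptor that binds receptor tyrosine kinases, had 54.2, 52.1 and 38.3 CPM in OSGEP shRNA libraries 1, 2 and 3 and 15.8, 20.3 and 15.8 CPM in control shRNA libraries 1, 2 and 3 (log2 fold change 1.48, SE 0.23). The SRC family kinase FGR rose by 1.12 (SE 0.22) on the log2 scale, and the RAS exchange factor SOS2 by 0.82 (SE 0.21). The SOS2 call was lost without knockdown library 3, control library 1 or control library 2 (0.72, 0.64 and 0.87). JAK2, STAT5A and STAT5B had log2 fold changes of -0.40, 0.39 and -0.54 and did not pass.

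Among 19 tested STAT targets and feedback genes, 2 rose and 1 fell, 15.8% beside 10.8% of all genes tested, with a median of 0.02. PIM1, a serine/threonine kinase gene induced by STAT5, had 102, 80.1 and 103 CPM in OSGEP shRNA libraries 1, 2 and 3 and 34.6, 34.2 and 37.7 CPM in control shRNA libraries 1, 2 and 3 (log2 fold change 1.42, SE 0.17, edgeR adjusted p = 2.73e-05). Its groups did not overlap. The anti-apoptotic gene BCL2L1 rose (log2 fold change 1.14, SE 0.34), a call lost without knockdown library 1, knockdown library 3, control library 1 or control library 3 (1.15, 1.05, 0.86 and 1.15). MYC fell by 0.69 (SE 0.11).

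Among transcription factors known to act on such receptor genes, MYB, IRF8, ETS2 and ETV6 fell and JUN rose. Of 27 tested, 8 fell and 1 rose, 33.3% of those tested, with a median of -0.14. Of all genes tested 10.8% were called, 5.56% lower and 5.19% higher. MYB, a progenitor factor, had 46.9, 74.1 and 68.4 CPM in OSGEP shRNA libraries 1, 2 and 3 and 159, 181 and 157 CPM in control shRNA libraries 1, 2 and 3 (log2 fold change -1.39, SE 0.17, edgeR adjusted p = 3.48e-05). IRF8, a factor of monocyte and dendritic cell fate, fell by 1.06 (SE 0.13), ETS2 by 1.22 (SE 0.23), ETV6 by 1.00 (SE 0.19) and GATA2 by 1.12 (SE 0.32). The GATA2 call was lost in each of the 6 fits that left out a library (-1.24 to -0.97) and with library size alone (-1.05). JUN, an AP-1 subunit, rose by 1.23 on the log2 scale (SE 0.21). SPI1, which encodes PU.1, and CEBPA, chosen after their values were seen as known regulators of CSF1R and CSF3R, had log2 fold changes of -0.14 and 0.28 and did not pass (edgeR adjusted p = 0.631 and 0.458).

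Proteases that shed receptors from the cell surface, with their partners, split. Of 15 tested, 3 rose and 2 fell, 33.3% beside 10.8% of all genes tested, with a median of 0.42. Without control library 3, 3 were called. ADAM28 and ADAM9 rose by 2.93 (SE 0.48) and 0.96 (SE 0.15) on the log2 scale and the gamma-secretase subunit NCSTN by 0.58 (SE 0.14), the last lost without control library 1 or 3 (0.50 and 0.56). ELANE, a granule elastase, fell by 1.36 (SE 0.13). RHBDF1, an iRhom that steers ADAM17, fell by 2.86 (SE 0.79), lost without knockdown library 1, control library 2 or control library 3 (-2.51, -2.69 and -2.79). ADAM10 and ADAM17, the main sheddases of AXL and MERTK, had log2 fold changes of -0.14 and 0.42 and did not pass.

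Genes of efferocytosis, the engulfment of dying cells in which MERTK acts, had 4 rises and 1 fall among 17 tested. This was 29.4% beside 10.8% of all genes tested, with a median of 0.35. CD36, a scavenger receptor, had 119, 94.4 and 82.4 CPM in OSGEP shRNA libraries 1, 2 and 3 and 0.927, 0.818 and 0.615 CPM in control shRNA libraries 1, 2 and 3 (log2 fold change 6.93, SE 0.28). LRP1, an engulfment receptor, rose by 1.71 (SE 0.31), SIRPA, which receives the inhibitory CD47 signal, by 1.05 (SE 0.14), and the GTPase gene RAC1 by 0.58 (SE 0.11) on the log2 scale. RAC2, its haematopoietic relative, fell by 0.53 (SE 0.11).

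**Figure D5:**
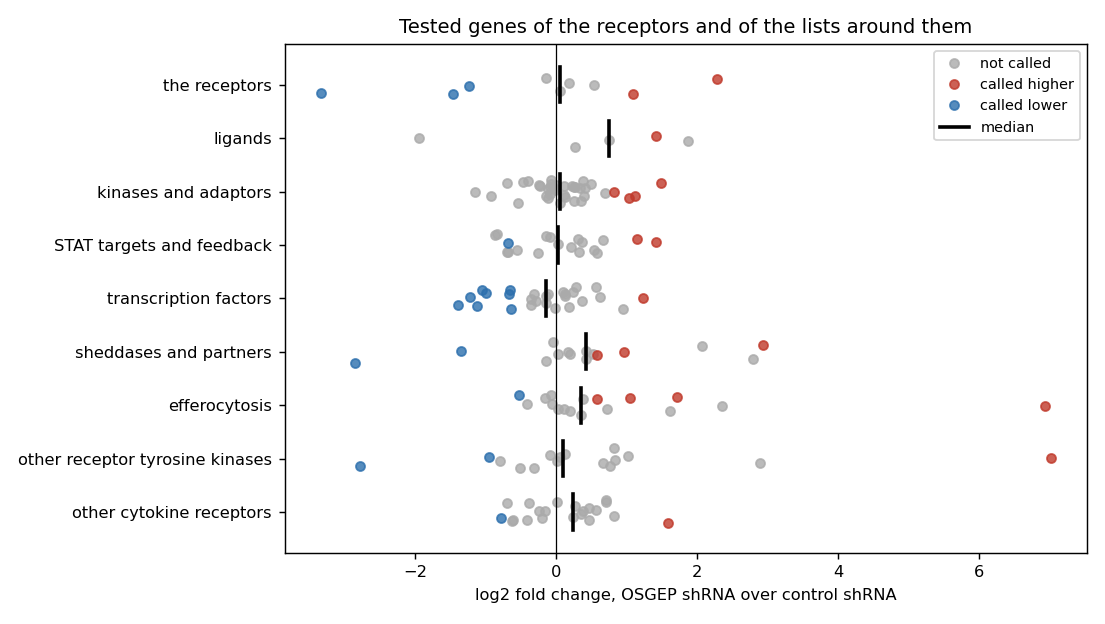
Log2 fold change, OSGEP shRNA over control shRNA, of every tested gene among the receptors and 8 surrounding lists; points are genes (red called higher, blue called lower, grey not called) and black bars medians. The receptors span -3.34 to 2.28 around a median of 0.05, and the points furthest right are CD36 and EPHB2, the position of EPHB2 depending on the prior count because control libraries 1 and 3 have no read.

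Other receptors of the same kinds give a setting for these values. Of 52 other receptor tyrosine kinases 16 could be tested, of which 1 rose and 2 fell (18.8%, beside 10.8% of all genes tested). The neurotrophic factor receptor RET had 11.4, 5.18 and 10.7 CPM in OSGEP shRNA libraries 1, 2 and 3 and 51.3, 67.4 and 67.3 CPM in control shRNA libraries 1, 2 and 3 (log2 fold change -2.78, SE 0.28), and the insulin receptor INSR fell by 0.95 (SE 0.16). The ephrin receptor EPHB2 had 193, 137 and 119 reads in OSGEP shRNA libraries 1, 2 and 3 and 0, 3 and 0 reads in control shRNA libraries 1, 2 and 3, and rose (edgeR adjusted p = 1.35e-05). Of 39 other cytokine receptor genes 21 could be tested, of which 1 rose and 1 fell (9.52%, close to the 10.8% of all genes). IFNGR1, the ligand-binding chain for interferon gamma, rose by 1.58 on the log2 scale (SE 0.16). IL2RG fell by 0.78 (SE 0.23), a call lost without knockdown library 1, knockdown library 3, control library 2 or control library 3 (-0.60, -0.86, -0.56 and -0.85), and with library size alone (-0.70). Whether the 10 receptors differ from these groups was not tested.

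Markers of erythroid cells and of megakaryocytes and mast cells were low, while the other lists of cell type markers held genes with clear levels. Summed levels were 0.939 to 7.12 CPM in knockdown cells and 2.95 to 7.94 CPM in control cells for 7 erythroid markers, and 1.46 to 4.86 CPM in knockdown cells and 2.22 to 5.26 CPM in control cells for 9 megakaryocyte and mast cell markers. For the first, KLF1 and HBB, the most read, stood at 2.47 and 0.272 CPM in knockdown cells and 5.14 and 0.663 CPM in control cells, and EPB42 had no read. For the second, TPSB2 and TPSAB1 stood at 1.82 and 1.43 CPM in knockdown cells and 1.93 and 1.71 CPM in control cells, and GP9, PPBP, CPA3, FCER1A and MS4A2 had no read. The 8 lymphoid markers summed to 33.4 to 52.9 CPM in knockdown cells and 84.6 to 102 CPM in control cells. Among them NKG7 fell by 1.88 on the log2 scale (SE 0.17), PAX5 rose by 3.64 (SE 0.65) and CD3E and CD3D each averaged under 1 CPM in either group. The 11 epithelial, stromal and endothelial markers summed to 93.7 to 103 CPM in knockdown cells and 88.0 to 108 CPM in control cells. PECAM1 was the most read, at 46.7 CPM in knockdown cells and 66.3 CPM in control cells (log2 fold change -0.50). KRT8 stood at 19.1 CPM in knockdown cells and 8.31 CPM in control cells (1.20), and neither passed. Of the 11, CDH1 rose by 1.59 (SE 0.42), a call lost (1.5 to 1.69) when any library other than knockdown library 2 was left out, and CDH5 had no read. The part of these markers in the receptor results was not tested.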

How the data were processed

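The deposited values were raw counts of reads per Ensembl gene, 1 table a library, whole numbers with no normalisation by the authors. Per the labels' protocols, total RNA went into a stranded mRNA library and was sequenced as paired-end reads of 150 bp. HISAT2 2.1.0, featureCounts 1.6.3 and the builds GRCh38 and GRCm38 appear in the submitters' processing notes with no role. The sources used here give neither the annotation release, nor the strand setting, nor the treatment of reads with several matches, so reads of overlapping genes and of pseudogenes may not be told apart.

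Symbols came from a table of current names (57532 of 58302 identifiers) and GENCODE 29 (58039), which also gave exon lengths, positions on GRCh38 and coding sequences. All 10 receptors matched. Promoter sequences came from RefSeq (GRCh38.p14). Where it lists several starts, the one nearest GENCODE's gene start was used.

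The main test was edgeR 4.0.16 (R 4.3.3), quasi-likelihood F test, TMM scaling, default low-count filter (minimum count 10, total 15), group as the only term, two-sided, with Benjamini-Hochberg adjustment over all 14018 genes tested and a threshold of 0.05. The filter left out 44284 genes. The common biological coefficient of variation was 35.2%. Standard errors were computed from the log2 fold change and its F statistic. CPM are means ± SD of TMM-normalised counts, also for genes below the filter. Levels per kb divide CPM by the union of annotated exons. Within-library ratios were compared by exact permutation over libraries. Each library was counted as its own sample. Libraries of the same group differed beyond sampling noise (chi-square over its degrees of freedom 10.53 to 25.56). Separate library preparations of the same culture and PCR duplicates can also raise that value, so it cannot show that the libraries are independent cultures.

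Alternatives were RLE and library-size scaling, 2 other filters, a replicate block, leaving out each library, DESeq2 1.42.0 and limma-voom (limma 3.58.1). The steps were tested on simulated data.

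The receptors and the surrounding lists were chosen with earlier results of these data known. Of each list, the text names up to 6 called genes with a mean of at least 1 CPM and the largest change, or the 2 most abundant where none was called. Some list genes are not reported here by name. Other genes named, including all ligands, were added after their values were seen.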

Additional observations from a re-analysis of the deposited data

How the results depend on the processing

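The same 5 calls among the receptors, MERTK and CSF2RB higher and AXL, FLT3 and CSF3R lower, were made under each of the 7 other settings and in each of the 6 fits without a library. The number of genes called over the whole table was 1507, and 870 to 1624 with a library left out (445 to 726 higher, 423 to 898 lower). With a library left out, the count of called genes was 1 to 2 for ligands (1 with all libraries), 3 to 5 for proteases (5) and 1 to 3 for other cytokine receptors (2). For ligands it was 2 with RLE size factors, library size alone, a mean CPM filter of 5 and DESeq2. Of the 4 tested receptors that did not pass, TYRO3 kept its sign (0.18 to 0.77) and the other 3 changed sign with a library left out: the log2 fold change of CSF1R ranged from -0.01 to 0.15, CSF2RA from -1.02 to 0.41 (also 0.02 and 0.19 without control libraries 2 and 3) and IL3RA from -0.16 to 0.51. KITLG ranged from -0.28 to 0.69 and was -0.05 with limma-voom, and TPSB2 (-0.41 to 0.77, 0.04 with the replicate block, 0.01 with limma-voom) and TPSAB1 (-0.82 to 0.22, 0.13 without knockdown library 1) were likewise not called. The difference in the AXL share was -68.2 to -61.2 points, and that in the ratio of CSF2RB to its alpha chains 1.84 to 6.89 (4.45 with all libraries), or 11.5 from raw counts, where no length weighs the genes. The cause of the other changes was not tested. Same-numbered libraries did not deviate together (correlations of -0.116, -0.062 and -0.037), beside -0.038 to 0.104 for libraries with different numbers. With 3 libraries a group, this check cannot exclude that the numbers pair them. With the replicate block 1072 genes were called, among them the same 5 receptors, and BCL2L1, GATA2, CDH1, PLCXD1 and P2RY8 were not. KIT had 1 read in all, and CSF2RA had 3 to 101 reads a library.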
